A study of Mus musculus with 24 samples.

Results

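The 10 genes described here, *Gfap*, *Aqp4*, *Slc1a2*, *Slc1a3*, *Aldh1l1*, *Gja1*, *S100b*, *Glul*, *Sox9* and *Aldoc*, are commonly used to mark astrocytes. They were chosen by name, as the rows of the table of normalized counts with these symbols, and all 10 were found among its 15456 genes. The table came from RNA-seq of the medial prefrontal cortex (mPFC) of 24 male BALB/C mice at postnatal week 11, with 6 mice and 1 library per mouse in each of 4 groups. Controls were labelled as untreated and, per the study's methods, received PBS, the dul group daily i.p. duloxetine, an inhibitor of serotonin and norepinephrine reuptake, and the Rum group live *R. flavefaciens*, an anaerobic gut bacterium, by gavage. The fourth group, dul+Rum, received both. Reads recovered from the table ranged from 12811413 to 15607343 per mouse, and the medians were 13591497 in control, 14536037 in dul, 13943370 in Rum and 14621656 in dul+Rum. The mice were group housed, and p-values treat them as independent and measure only the spread between these 24 samples. Some mice of a group share the first number of their names, as 12_2 and 12_4 do, and the labels do not say whether it marks a cage. Tissue was taken from slices of frontal cortex with a needle and holds all cell types, so fewer astrocytes and less RNA per astrocyte cannot be told apart.

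Astrocytes clear glutamate from synapses, convert it to glutamine for return to neurons, buffer potassium and water around blood vessels, and are joined to one another by gap junctions. *Slc1a2* and *Slc1a3* encode the glutamate transporters GLT-1 and GLAST, and *Glul* encodes glutamine synthetase. *Aqp4* is the water channel of astrocyte endfeet and *Gja1* a gap junction connexin, while *Aldh1l1* is an enzyme of folate metabolism, *Aldoc* the brain aldolase of glycolysis and *Sox9* a transcription factor of glial cells. *Gfap* is the intermediate filament protein that increases in reactive astrocytes, and *S100b* is a calcium-binding protein that oligodendrocytes make as well.

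Promoter sequences of 8 of the 10 genes were matched by symbol in a RefSeq table of the build GRCm38.p6. The 250 bases before the annotated start are shown for 4 genes that later results turn on. *Gja1* and *Glul* had the highest Pearson r of all pairs across mice. *Slc1a2* and *S100b* had the lowest, -0.040, which rested on mouse 9_3 of the Rum group and was 0.55 without it, and by Spearman rho *Aqp4* and *Sox9* were lower. Each line is written 5′ to 3′ on the plus strand, and capitals mark the letters TTGGC, the half-site of NFI transcription factors, or its reverse complement GCCAA.
Gja1: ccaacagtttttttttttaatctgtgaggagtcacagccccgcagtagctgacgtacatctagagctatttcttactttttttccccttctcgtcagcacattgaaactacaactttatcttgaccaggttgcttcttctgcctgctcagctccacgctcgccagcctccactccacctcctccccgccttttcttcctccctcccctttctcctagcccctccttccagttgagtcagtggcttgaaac
Glul: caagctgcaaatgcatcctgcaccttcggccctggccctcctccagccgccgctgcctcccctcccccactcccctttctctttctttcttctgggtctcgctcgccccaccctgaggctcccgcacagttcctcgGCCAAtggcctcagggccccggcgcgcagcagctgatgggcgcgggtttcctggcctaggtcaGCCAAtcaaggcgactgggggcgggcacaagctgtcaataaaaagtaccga
Slc1a2: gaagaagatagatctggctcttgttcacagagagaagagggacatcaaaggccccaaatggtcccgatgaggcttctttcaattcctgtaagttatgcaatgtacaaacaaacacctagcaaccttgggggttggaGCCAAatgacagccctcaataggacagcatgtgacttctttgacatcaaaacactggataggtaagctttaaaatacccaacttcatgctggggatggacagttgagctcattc
S100b: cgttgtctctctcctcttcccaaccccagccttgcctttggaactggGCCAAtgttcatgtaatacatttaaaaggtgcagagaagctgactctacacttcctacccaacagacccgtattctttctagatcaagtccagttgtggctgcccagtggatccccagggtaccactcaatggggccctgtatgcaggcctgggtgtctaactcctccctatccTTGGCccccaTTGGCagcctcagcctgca
The windows are chr10:56377050-56377299 for *Gja1*, chr1:153899679-153899928 for *Glul*, chr2:102706188-102706437 for *Slc1a2* and chr10:76253586-76253835 for *S100b*. That of *Slc1a2* lies inside the gene interval of the deposited table, given next, since RefSeq places its start there. The half-site was found on either strand 3 times before *S100b*, 2 times before *Glul*, once before *Slc1a2* and not before *Gja1*. It was present before 4 of the 8 genes, the fourth being *Aldoc*, and in 41.5 percent of all 32851 promoters in the table. *Aldoc* has 2 starts there, and the half-site lies before only 1 of them. A gene was counted if the window of any of its starts matched, while the percentages count single promoters. The TATA box TATAAA was found before 1 of the 8, *Slc1a3*, and in 12.4 percent of all promoters, and the STAT motif TTCNNNGAA before 2, *Slc1a3* and the other start of *Aldoc*, and in 7.02 percent of all. Neither of the latter was found in the lines shown, and a match of so few letters describes the sequence only.

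On the build GRCm38, *Slc1a2* lies on the plus strand at chr2:102658659-102790784, *Slc1a3* on the minus strand at chr15:8634124-8710764 and *Glul* on the plus strand at chr1:153899944-153909723. *Aqp4* is on the minus strand at chr18:15389394-15403684 and *Gja1* on the plus strand at chr10:56377330-56402513. *S100b* is on the same chromosome as *Gja1*, at chr10:76253853-76261159 on the plus strand, and *Aldh1l1* is on the plus strand at chr6:90486427-90600203. Chromosome 11 holds *Gfap* on the minus strand at chr11:102887336-102900912, and, on the plus strand, *Sox9* at chr11:112782224-112787760 and *Aldoc* at chr11:78322968-78327781. All are protein coding.

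All 10 genes were well expressed and passed the filter of a mean of at least 10 normalized counts. Their mean levels placed them above 63.8 percent of genes for *Sox9* and up to 99.9 percent for *Slc1a2*. Normalized counts per kilobase of transcript were used to order the genes. *Glul* was highest with 7057 ± 819 per kilobase, followed by *Slc1a2* with 4356 ± 498 and *Aldoc* with 2672 ± 324 (mean ± SD, n = 24 mice). *Slc1a3* had 1747 ± 191, *Gja1* 789 ± 112, *S100b* 705 ± 107 and *Gfap* 382 ± 100 per kilobase. At the low end *Aqp4* had 234 ± 27.6, *Aldh1l1* 163 ± 18.9 and *Sox9* 120 ± 16.02 per kilobase. Only *Glul* over *Slc1a2* and *Slc1a3* over *Gja1* were steps at which every mouse of the upper gene lay above every mouse of the lower one, and the other 7 neighbours overlapped.

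The tissue label was checked on marker genes of other cells. Excitatory neuron genes were abundant, with a mean of 52794 normalized counts for *Camk2a*, a kinase of glutamatergic synapses. Genes of the choroid plexus, which makes cerebrospinal fluid in the ventricles, were near the bottom of the table, with *Folr1*, *Kcnj13* and *Otx2* not listed and *Kl* the most abundant at 44.4. Striatum genes had means from 49.7 normalized counts up to 1235 for the most abundant, *Pde10a*. Their mean log2 level in mouse 8_4 of the Rum group was 1.80 above the mean of all mice, where *Pde10a*, a phosphodiesterase of striatal neurons, had 2190 normalized counts, and 1.04 above it in mouse 11_4 of the dul+Rum group. Mouse 8_4 stood apart in choroid plexus genes too, which summed to 924 normalized counts there and to at most 212 in the other 23 mice.

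A second library stood apart in the balance of long and short transcripts. In mouse 9_3 of the Rum group, genes with transcripts over 6000 bases had a median log2 level 0.33 below their mean over all mice and genes under 1500 bases a median 0.29 above it. The difference between these medians, long minus short, was -0.62 in this mouse, -0.24 in 7_2 and -0.20 in 8_4, all in the Rum group, and lay between -0.11 and 0.15 in the other 21 mice. *Slc1a2* has the longest transcript of the 10 genes, 11595 bases, and *S100b* the shortest, 1484 bases. Calls that were lost without mouse 9_3 are given below with and without it.

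None of the 10 genes differed between groups past the threshold, an adjusted p-value under 0.05 in the limma fit across the 14974 genes tested. In no comparison of 2 groups did the values of a member separate the groups. For all genes tested, the share with groups that did not overlap was 0.334 percent for dul against control, 1.62 percent for Rum against control, 2.04 percent for dul+Rum against control, 0.254 percent for dul+Rum against dul and 1.44 percent for dul+Rum against Rum.

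**Figure D1:**
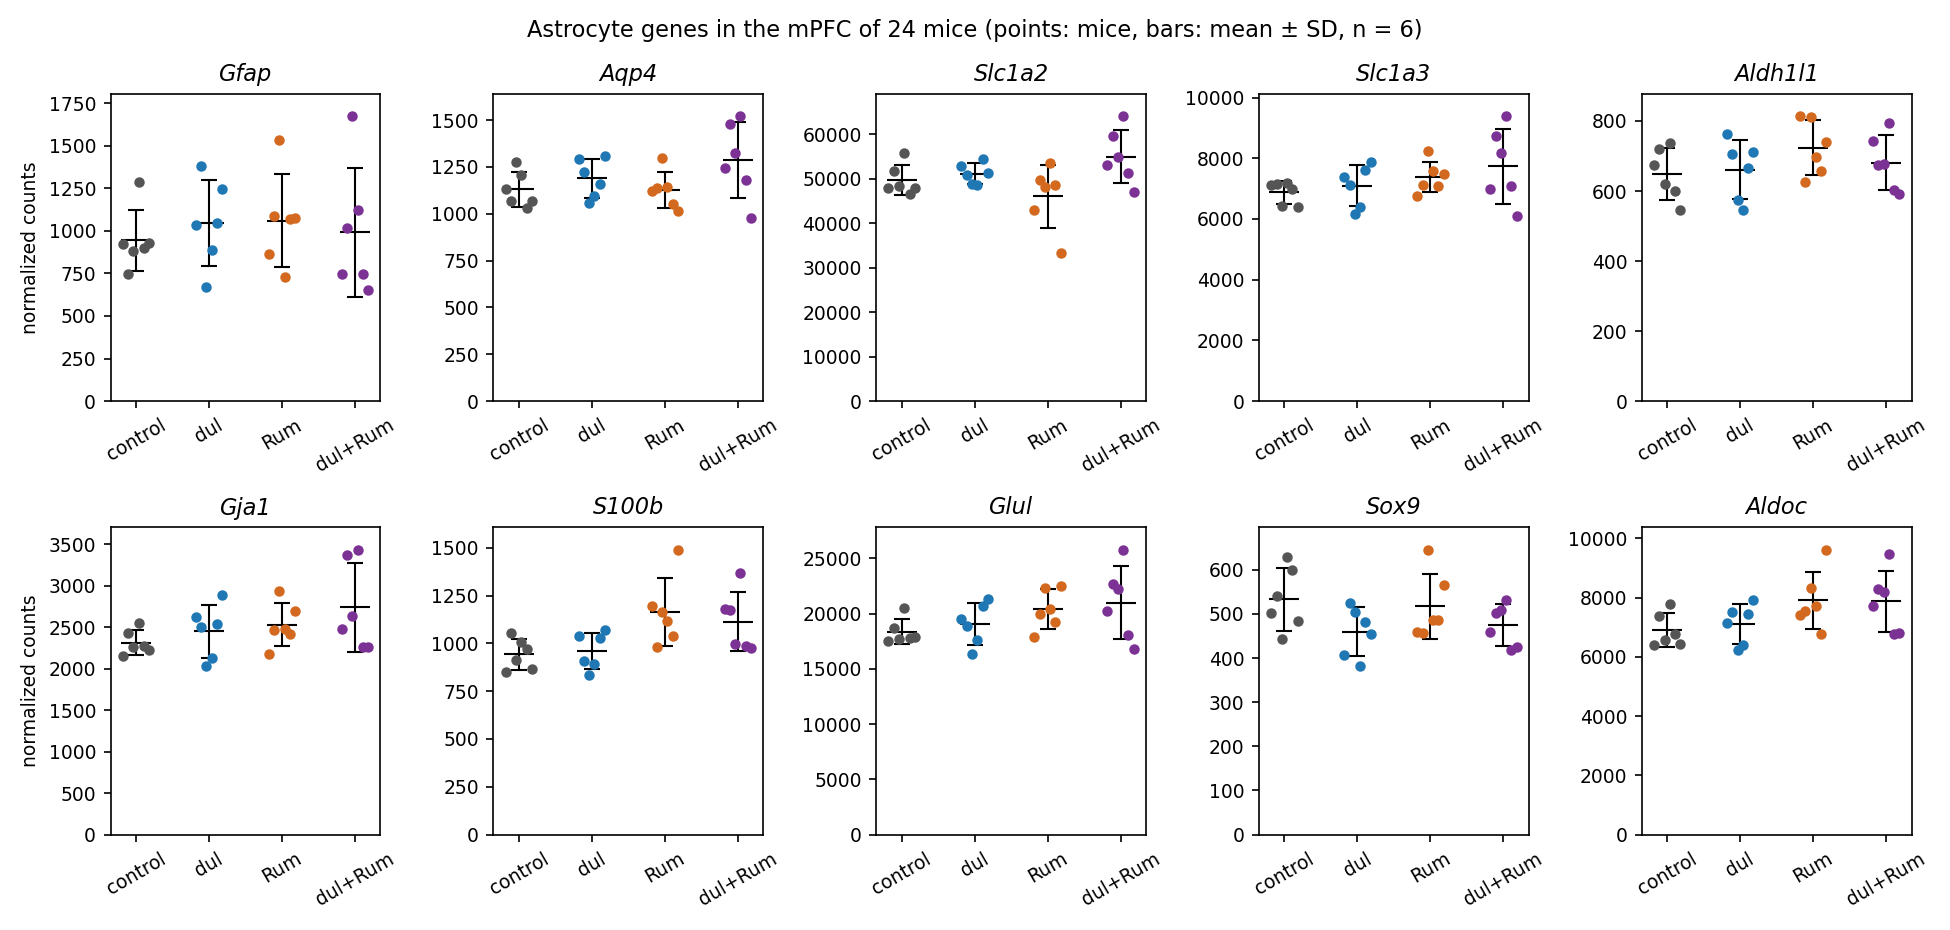
Normalized counts (y axis, from 0) of the 10 astrocyte genes in each mouse (points), by group (x axis), with mean and SD as bars, n = 6 mice per group. The groups overlap for every gene, and the lowest point of *Slc1a2*, 33343, is mouse 9_3 of the Rum group.

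The comparison of dul with control asks what the antidepressant alone changed. Differences of the 10 genes were small, with a median log2 fold change of 0.043 beside -0.0018 for all genes tested. It was 0.015 without mouse 6_3 and 0.080 without 5_4. Of the members 0 were called, as were 0 percent of all genes, and 1, *Sox9*, had an unadjusted p-value under 0.05, beside 3.83 percent of all genes, or 1.63 percent when only lower genes are counted. The count of members at this level was 0 without mouse 2_1. *Sox9* had 444, 521 and 628 normalized counts in controls and 382, 469 and 525 in the dul group (lowest, median and highest). All 6 dul mice lay below the control mean, but 4 of them within the control range. The log2 difference was -0.21 ± 0.10 (SE, limma, adjusted p = 0.9996), with a 95% interval from -0.41 to -0.02. In the other 9 genes the difference ranged from 0.02 for *Aldh1l1* to 0.13 for *Gfap*, and all 9 intervals included 0. *Slc1a2*, at 0.04, was at -0.15 with quantile normalization, and *S100b*, at 0.03, at -0.012 with the length trend removed. edgeR and DESeq2, run on recovered reads, also called 0 of the 10, with 1 at an unadjusted p-value under 0.05 each.

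The comparison of Rum with control asks what the bacterium alone changed, and it uses the same control mice. limma called 0 of the 10 genes here, beside 0.0267 percent of all genes, and edgeR called 0. DESeq2 called 1, *S100b*, and 5.6 percent of the 8877 genes to which it gave an adjusted p-value. By each of the 3 tools, 2 of the 10 had an unadjusted p-value under 0.05, and in limma 19.6 percent of all genes had one. Both members were higher in Rum, as were 8.86 percent of all genes at this level. In limma the count of members was 1 without mouse 1_1 and 4 without 2_3. The median log2 fold change of the members was 0.14 beside 0.0031 for all genes. On average 7 members were higher and 3 lower, and 50.8 percent of all genes were higher. Without mouse 8_4, in which striatum genes were high, the median was 0.075.

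*S100b* had 852, 940 and 1056 normalized counts in controls and 983, 1142 and 1490 in the Rum group (lowest, median and highest). All 6 Rum mice lay above the control mean and 4 of them above every control, with mouse 9_3 the highest. The log2 difference of 0.30 ± 0.09 (SE), or 1.23-fold, had a 95% interval from 0.11 to 0.48 and an adjusted p of 0.093 in limma. With DESeq2 the adjusted p was 0.037, and over the 9 settings other than leaving out a mouse it ran from 0.037 to 0.28. Without mouse 8_3 or without 9_2, limma gave 0.043 and 0.048, and without 9_3 it gave 0.29 with a difference of 0.22. The call of *S100b* therefore depended on the tool and on single mice.

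*Aldoc* was the other gene with an unadjusted p-value under 0.05. It had 6404, 6673 and 7796 normalized counts in controls and 6775, 7646 and 9617 in the Rum group (lowest, median and highest). The groups overlapped, 2 Rum mice lay above every control, and the difference was 0.19 ± 0.08 (SE, limma, adjusted p = 0.19), or 0.13 without mouse 9_3, the highest (adjusted p = 0.52). In the glutamate genes the difference was 0.15 for *Glul*, 0.10 for *Slc1a3* and -0.12 ± 0.09 for *Slc1a2* (adjusted p = 0.33, 0.51 and 0.45). For *Slc1a2* it was -0.034 without mouse 9_3. With all mice kept, it was 0.06 once the trend with transcript length was removed from each mouse, and -0.27 with quantile normalization (adjusted p = 0.099). The size and sign of the *Slc1a2* difference therefore depended on these steps. *Gfap* differed by 0.15 and *Aqp4* by -0.0036, with intervals from -0.25 to 0.54 and from -0.18 to 0.17.

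Across all genes, the same comparison moved with transcript length. The median log2 fold change was 0.13 in 2047 genes under 1500 bases, 0.05 from 1500 to 3000, -0.03 from 3000 to 6000 and -0.13 in 2099 genes over 6000 bases. *S100b* and *Slc1a2* lay at these ends, and the part of length in their differences was not tested beyond the alternative with the trend removed. With the trend removed, *S100b* also stayed short of the threshold.

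**Figure D2:**
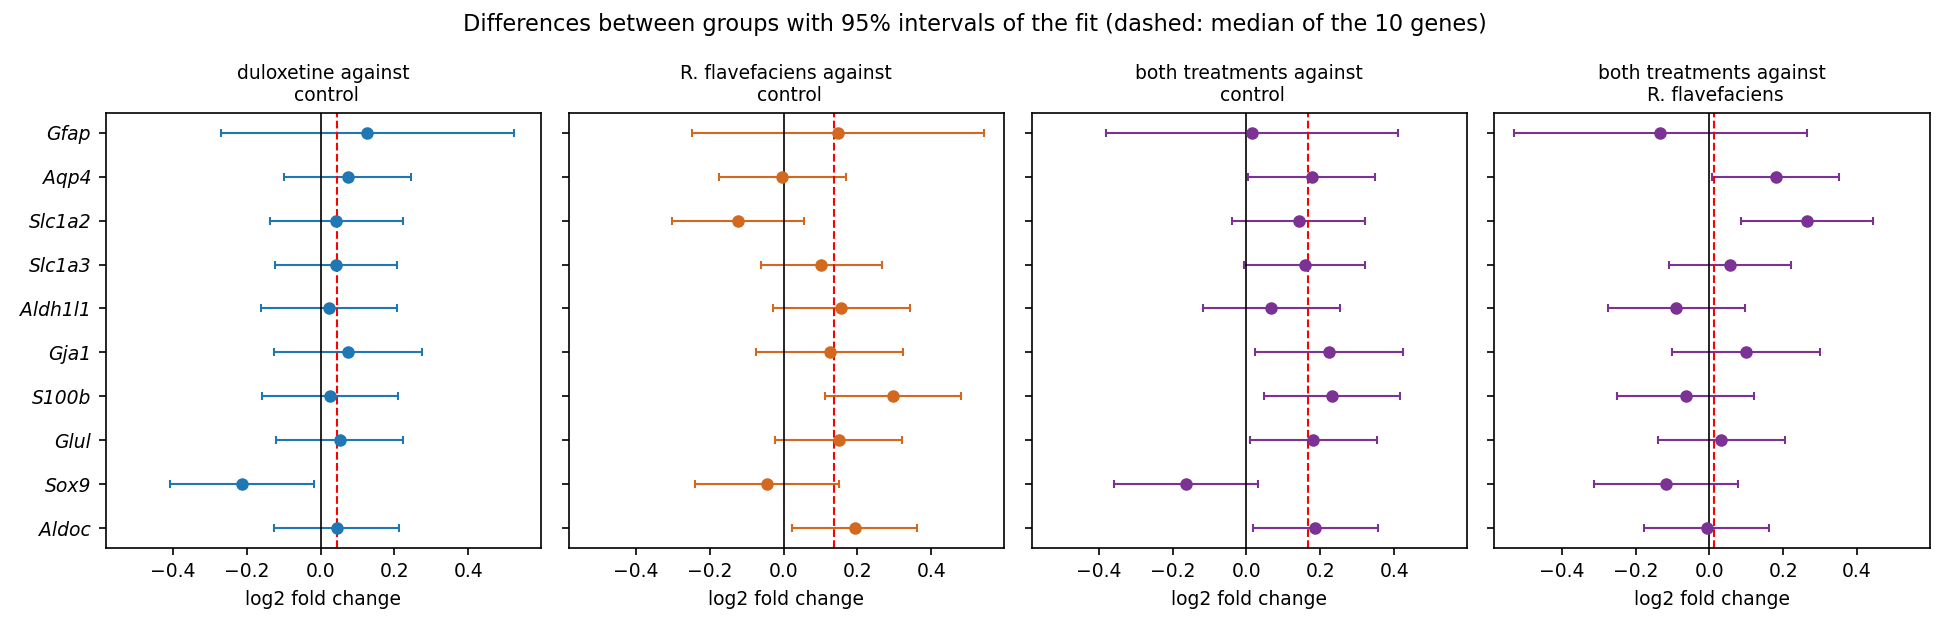
Log2 fold change of each astrocyte gene with its 95% interval from the limma fit (x axis), in 4 comparisons (panels), and the median of the 10 genes as a dashed line. The medians are 0.043, 0.14, 0.17 and 0.012 from left to right, and no gene passed the threshold in a panel.

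In dul+Rum against control, the question is what the combination changed, again beside the same controls. Of the 10 genes 0 were called by limma, edgeR or DESeq2, beside 0.1 percent of all genes in limma, 0.114 percent in edgeR and, in DESeq2, 1.68 percent of the 12941 genes to which it gave an adjusted p-value. An unadjusted p-value under 0.05 was found for 5 genes in limma and 6 in both other tools, and for 16.8 percent of all genes in limma. The 5 genes were *Gja1*, *S100b*, *Aldoc*, *Glul* and *Aqp4*, all with higher means in dul+Rum, and 8.08 percent of all genes were higher at this level. Their log2 differences ran from 0.18 for *Aqp4* to 0.23 for *S100b*, and their adjusted p-values in limma from 0.21 to 0.29. The median over the 10 genes was 0.17 beside 0.00072 for all genes. Of the 10, 9 were higher, beside 50.2 percent of all genes, and *Sox9* differed by -0.16 ± 0.10. *Slc1a2*, at 0.14, was at -0.15 with quantile normalization, and *Gfap*, at 0.01, at -0.022 with the length trend removed.

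Part of the higher level in dul+Rum rested on mouse 12_2. *Gja1* had 2150, 2269 and 2551 normalized counts in controls and 2259, 2559 and 3435 in dul+Rum (lowest, median and highest), and *Glul* had 17566, 17812 and 20526 in controls and 16823, 21260 and 25786 in dul+Rum. In both genes 3 of the 6 dul+Rum mice lay above every control, and the highest was 12_2. *Aqp4* had 1033, 1100 and 1274 in controls and 976, 1286 and 1520 in dul+Rum. Here too 3 mice were above every control and 1, mouse 12_4, below. Without 12_2 the median of the 10 genes was 0.11 with 0 genes at this level, and without 12_4 it was 0.23 with 7 genes.

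In dul+Rum against dul, 0 of the 10 genes and 0 percent of all genes were called by limma, and edgeR and DESeq2 called 0 of the 10. Each tool gave an unadjusted p-value under 0.05 for 1 of them, *S100b*, and limma for 5.9 percent of all genes, of which higher genes made up 3.02 percent of those tested. *S100b* had 836, 968 and 1069 normalized counts in the dul group and 978, 1085 and 1368 in dul+Rum (lowest, median and highest). All 6 dul+Rum mice were above the dul mean and 3 above every dul mouse, and the log2 difference was 0.21 ± 0.09 (SE, limma, adjusted p = 0.82). The median of the 10 genes was 0.11. It was 0.056 without mouse 12_2, and 0.18 without 12_4, when 5 genes passed the unadjusted level. Without mouse 5_3, 0 genes passed that level.

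In dul+Rum against Rum limma called 0 of the 10 astrocyte genes, beside 2.23 percent of all genes tested, or 0 when the fit held only these groups. edgeR and DESeq2 called 0 of the 10 as well. In each tool 2 had an unadjusted p-value under 0.05, *Slc1a2* and *Aqp4* in limma, beside 19.7 percent of all genes there. Both were higher in dul+Rum, as were 9.76 percent of all genes. Without mouse 7_2, 1 member was at this level in limma. *Slc1a2* had 33343, 48420 and 53596 normalized counts in the Rum group and 47044, 54035 and 64072 in dul+Rum (lowest, median and highest). All 6 dul+Rum mice lay above the Rum mean and 3 above every Rum mouse. The log2 difference of 0.26 ± 0.09 (SE), or 1.20-fold, had a 95% interval from 0.09 to 0.44 and an adjusted p of 0.099 in limma. Without mouse 9_3 it was 0.17 with an adjusted p of 0.21. It was 0.13 with the length trend removed and 0.12 with quantile normalization (adjusted p = 0.28 and 0.46). *Aqp4* differed by 0.18 ± 0.08 (adjusted p = 0.23). The median of the 10 genes was 0.012, and it was -0.046 without mouse 12_2 and 0.063 without 12_4. Of the 10, 5 were higher and 5 lower, while 50.5 percent of all genes were higher.

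The interaction asks whether the difference between dul+Rum and dul was another than that between Rum and control. For the 10 genes its median was -0.0029 on the log2 scale (-0.064 without mouse 12_2 and 0.058 without 12_4), between -0.26 for *Gfap* and 0.22 for *Slc1a2*. limma, edgeR and DESeq2 called 0 of the 10 and limma 0 percent of all genes. None of the 10 had an unadjusted p-value under 0.05 in any of the 3 tools, beside 7.53 percent of all genes in limma. Without mouse 9_1, 1 member reached this level in limma. The interval for *Gfap*, from -0.82 to 0.30, shows how little 6 mice per group say of this variable gene.

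A list of 56 other genes of astrocyte function was measured in full. Its median log2 fold change was 0.06 for dul, 0.17 for Rum and 0.17 for dul+Rum against control. In these comparisons 47, 48 and 47 of the 56 genes were higher, beside 49.0, 50.8 and 50.2 percent of all genes. The genes of a mouse come from 1 tissue sample, so these are not counts of independent observations. The median was 0.03 for dul without mouse 6_3, 0.13 for Rum without 8_4 and 0.11 for dul+Rum without 12_2, the lowest that the omission of 1 mouse gave in each. Called genes were few. limma called 0 of the 56 for dul, 0 for Rum and 1 for dul+Rum against control, DESeq2 0, 3 and 4, and edgeR 0, 0 and 1. DESeq2 called 0.00668, 5.6 and 1.68 percent of the 14974, 8877 and 12941 genes to which it gave an adjusted p-value in these comparisons, and edgeR 0.114 percent of all genes in the last. At an unadjusted p-value under 0.05, limma had 4, 21 and 19 of the 56, beside 3.83, 19.6 and 16.8 percent of all genes. The 4 for dul were 2 without mouse 2_1, the 21 for Rum were 11 without 8_4 and also 11 without 9_3, and the 19 for dul+Rum were 13 without 12_2 and 30 without 12_4. Calls by limma rose to 2 for Rum without 9_2 and to 3 for dul+Rum without 12_4. In dul+Rum against Rum limma called 2, and DESeq2 and edgeR 3 each, beside 2.23, 4.07 and 2.18 percent of all genes. The gene called by these tools but not by limma was *Id3*, an inhibitor of transcription factors, with a log2 difference of -0.40 in both.

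The called gene against control was *F3*, tissue factor, which starts blood coagulation and is strongly expressed by astrocytes. *F3* (chr3:121723537-121735048, plus strand) had 217, 268 and 333 normalized counts in controls and 360, 416 and 543 in dul+Rum (lowest, median and highest). Every dul+Rum mouse lay above every control. *F3* rose 0.71 ± 0.12 on the log2 scale (SE, limma, adjusted p = 0.0066), and it was called under all 9 other settings and in the 24 fits that each omitted 1 mouse. In dul it had 317, 353 and 489 and in Rum 299, 342 and 400 normalized counts. These single treatments differed from control by 0.51 and 0.37 (adjusted p = 0.88 and 0.10), with 4 and 3 mice above every control.

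*Grm3* and *Kcnj16* were the genes called in dul+Rum against Rum. *Grm3*, a metabotropic glutamate receptor (chr5:9485541-9725170, minus strand), had 701, 1131 and 1252 normalized counts in Rum and 1195, 1363 and 1445 in dul+Rum (lowest, median and highest). *Kcnj16*, a subunit of inwardly rectifying potassium channels (chr11:110968033-111027968, plus strand), had 289, 372 and 402 in Rum and 366, 448 and 484 in dul+Rum. The ranges overlapped in both genes, and the lowest *Grm3* value was again mouse 9_3. Their log2 differences were 0.33 ± 0.09 and 0.30 ± 0.08 (SE, limma, adjusted p = 0.0493 and 0.0495). Without mouse 9_3 both calls were lost, with differences of 0.22 and 0.28 (adjusted p = 0.060 and 0.092). The calls were close to the threshold: *Grm3* kept it in 4 and *Kcnj16* in 6 of the 24 fits that left out a mouse, and neither did with only the groups compared or with the length trend removed, when the differences were 0.31 and 0.27 in the latter and the same in the former.

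Among the genes of that list with the smallest p-value in a comparison, *Cst3*, the secreted protease inhibitor cystatin C, had 8216, 8790 and 9319 normalized counts in controls and 9861, 10142 and 13993 in Rum (lowest, median and highest). All 6 Rum mice were above every control, and the difference of 0.33 ± 0.09 had an adjusted p of 0.081 in limma and 0.025 in DESeq2. Without mouse 9_3, the highest, it was 0.26 (limma, adjusted p = 0.25). *Slc6a11*, a GABA transporter, differed by 0.20 ± 0.07 in dul+Rum against dul (adjusted p = 0.82). In dul+Rum against control it differed by 0.23 (limma, adjusted p = 0.12), and DESeq2 called it there (adjusted p = 0.04998). *Lhx2*, a homeodomain transcription factor, had the smallest p-value in the interaction, -0.22 ± 0.08 (adjusted p = 0.64). The most abundant gene of the list, *Sparcl1*, a secreted matrix protein, differed from control by 0.04, 0.05 and 0.07 in dul, Rum and dul+Rum (adjusted p = 0.9996, 0.67 and 0.57).

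Of 16 genes of reactive astrocytes 11 were in the table, and *Lcn2*, *Steap4*, *Timp1*, *Cxcl10* and *C3* were not. Their median log2 fold change was 0.09 for dul, 0.04 for Rum and -0.04 for dul+Rum against control. With 1 mouse omitted it was as low as 0.02 for dul (without 6_3), and it turned to -0.0036 for Rum (without 3_3) and to 0.04 for dul+Rum (without 12_3). limma called 0 of the 11 in each of these comparisons, with 1, 3 and 1 at an unadjusted p-value under 0.05, beside 3.83, 19.6 and 16.8 percent of all genes, and the 3 for Rum were 1 without mouse 9_3. DESeq2 called 1 for Rum, *S100a10*, beside 5.6 percent of the 8877 genes with an adjusted p-value there. In dul+Rum against Rum limma called 1, *Hspb1*, a small heat shock protein (chr5:135887919-135889563, plus strand). It had 67.6, 99.02 and 109 normalized counts in Rum and 35.6, 54.8 and 69.8 in dul+Rum (lowest, median and highest). edgeR and DESeq2 called it too, and the shares of all genes called here were 2.23 percent in limma, 2.18 in edgeR and 4.07 in DESeq2. *Hspb1* fell by 0.82 ± 0.21 on the log2 scale (SE, limma, adjusted p = 0.036), and the groups overlapped at 1 end. It kept the call in 17 of the 24 fits that left out a mouse, and not without mouse 9_3, when the difference was -0.77 (adjusted p = 0.076), or with only the groups compared (adjusted p = 0.089). *Synm*, an intermediate filament protein and the most abundant of the list, differed by -0.16 in Rum against control (adjusted p = 0.17), and *Aspg*, an asparaginase, by 0.42 in dul+Rum against control (adjusted p = 0.20).

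The 10 genes varied together from mouse to mouse within the groups. After group means were taken off the log2 values, 44 of the 45 pairs had a Pearson r above 0, with a median of 0.60, and 34 pairs had an adjusted p-value under 0.05 for both Pearson r and Spearman rho (permutation test, two-sided, 100000 resamples, adjusted over 45 pairs). The share of all gene pairs at this level was not computed. *Gja1* and *Glul* varied most alike, with r = 0.92 and rho = 0.93 (permutation p = 1e-05 for each, the smallest the resamples can give, adjusted p = 6.4e-05 for r). Without the 2 mice farthest from the median of *Gja1*, r was again 0.92. The next pairs were *Slc1a3* and *Glul* with 0.91, *Glul* and *Aldoc* with 0.90, and *Slc1a3* and *Gja1* with 0.90. All genes of a mouse come from 1 tissue sample and share 1 size factor, so a relation between genes does not separate cell number from expression per cell.

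**Figure D3:**
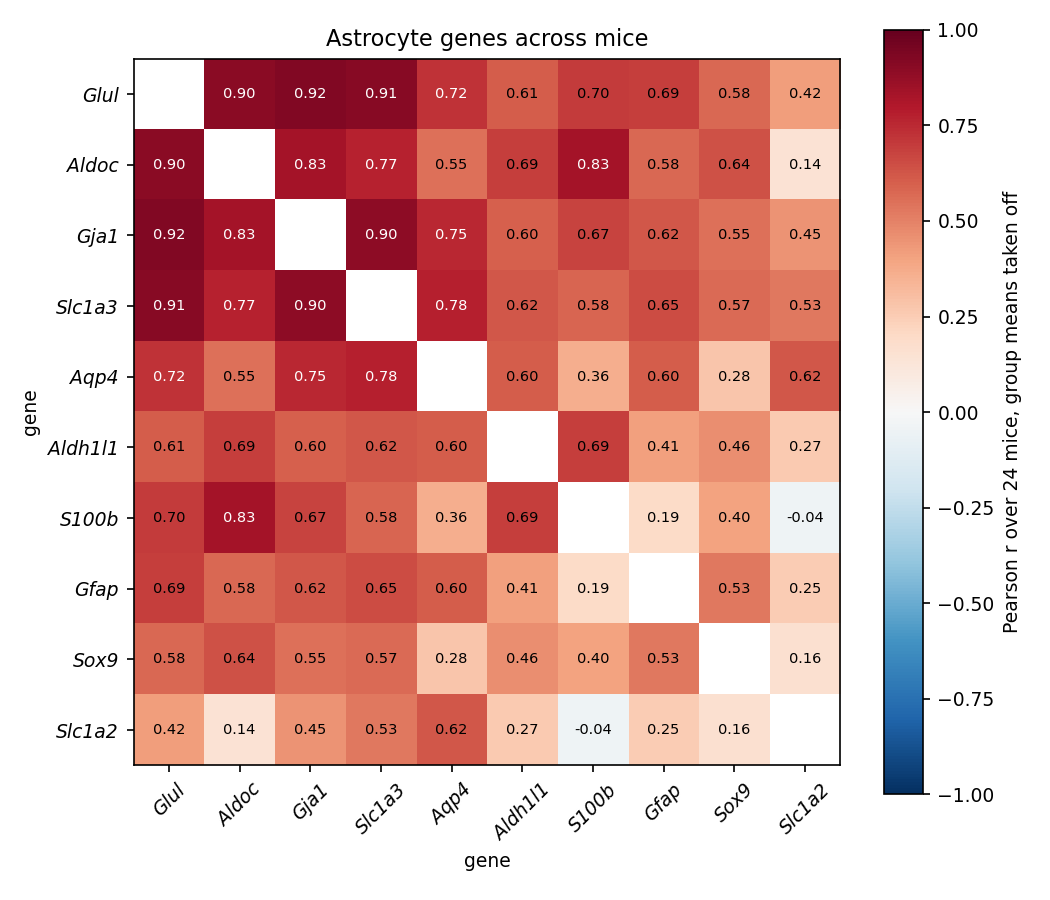
Pearson r of each pair of the 10 astrocyte genes (both axes) over 24 mice after group means were taken off, on a colour scale from -1 to 1. Values run from 0.92 for *Gja1* and *Glul* to -0.04 for *Slc1a2* and *S100b*, and the *Slc1a2* row is the palest.

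*Slc1a2* stood apart from the rest. Its median r with the other 9 genes was 0.27, against 0.53 to 0.70 for each of the others. With *S100b* it had r = -0.040 and rho = 0.22 (permutation p = 0.86 and 0.30, adjusted p = 0.86 for r). This r was the lowest of all pairs, while *Aqp4* and *Sox9* had the lowest rho, 0.21. Several of the low values of *Slc1a2* rested on a single mouse. Without 9_3, r of *Slc1a2* with *S100b* was 0.55, with *Aldoc* 0.74 instead of 0.14, and with *Glul* 0.85 instead of 0.42, and its median was 0.66, while with *Gfap*, *Sox9* and *Aldh1l1* it was 0.40, 0.42 and 0.43. The median over all 45 pairs was then 0.65.

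The mean log2 level of the 10 genes, each relative to its mean over all mice, summarizes this shared variation. It ran from -0.15 to 0.12 in controls, from -0.23 to 0.11 in dul, from -0.05 to 0.24 in Rum and from -0.22 to 0.33 in dul+Rum. The groups overlapped, and dul+Rum held both 12_2, the highest of the 24 mice, and 12_4, among the lowest. Its SD was 0.21, against 0.10 in controls, 0.14 in dul and 0.11 in Rum, and the difference in spread was not tested.

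Markers of other cell types were set beside the 10 genes across the mice. For each gene, the median r with the 10 members was taken as the measure of likeness over 24 mice. The median of this measure was 0.61 in the 56 other astrocyte genes, 0.65 in 10 microglia genes, 0.59 in 10 endothelial and pericyte genes, 0.51 in 10 oligodendrocyte genes, 0.53 in 5 oligodendrocyte precursor genes, 0.52 in 5 blood genes and 0.41 in 5 choroid plexus genes. It was -0.48 in 7 excitatory neuron genes, -0.026 in 7 meningeal fibroblast genes, 0.18 in 8 inhibitory neuron genes, 0.29 in 8 striatum genes, 0.20 in 11 reactive astrocyte genes and 0.0014 over all genes tested. Genes outside the 10 that were among the most like them were *Gpr37l1*, an orphan receptor of glia, with 0.79, *Glud1*, glutamate dehydrogenase, with 0.77, *Mfge8*, a secreted glycoprotein, with 0.77, and *Cuedc1* with 0.76. Of the 10, each of these was least like *Slc1a2*.

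**Figure D4:**
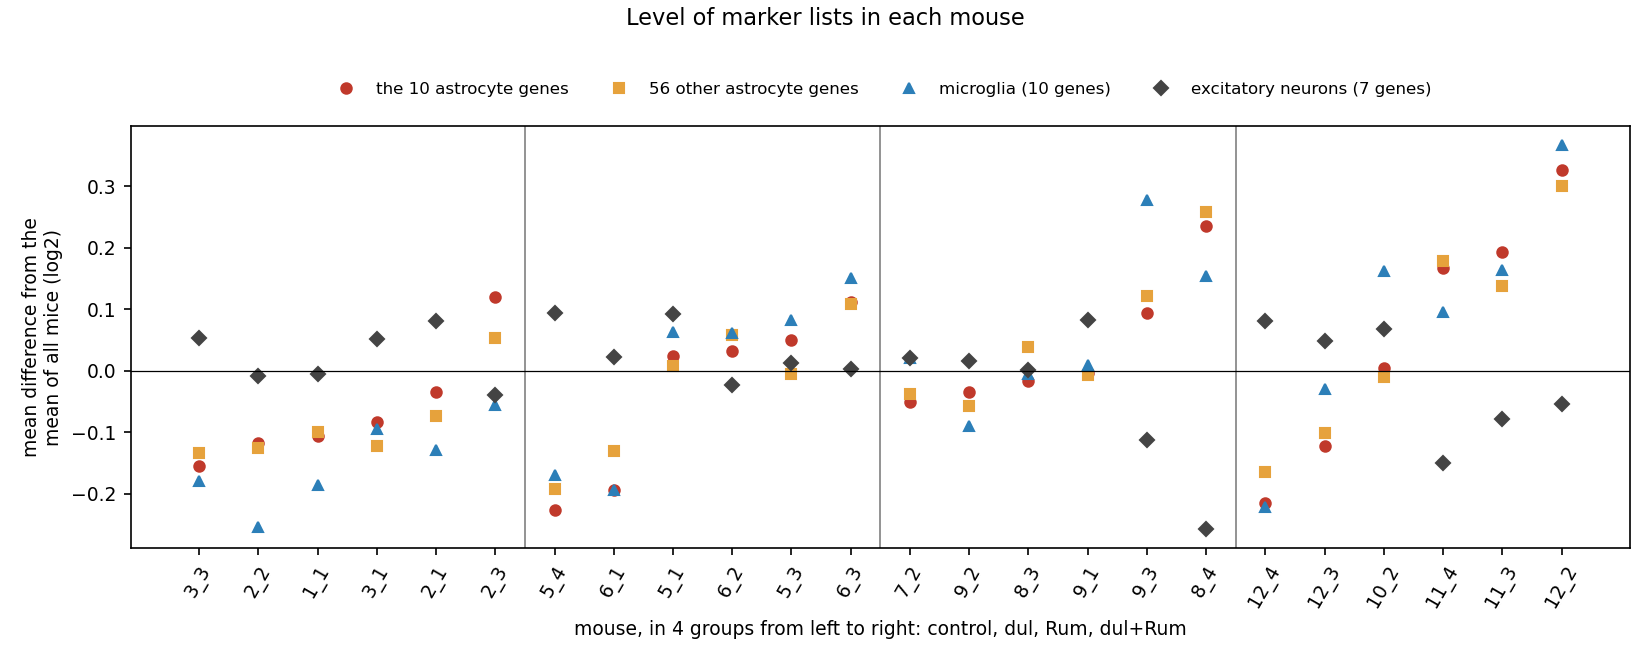
Mean log2 level of 4 marker lists relative to the mean of all mice (y axis) in each mouse (x axis), grouped and sorted within groups by the 10 astrocyte genes. Microglia genes and the 56 other astrocyte genes follow the 10 genes, from 12_4 at -0.22 to 12_2 at 0.33 in dul+Rum, and excitatory neuron genes are lowest in 8_4 at -0.26.

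Against control, the median log2 fold change of the microglia genes was 0.18 in dul, 0.22 in Rum and 0.27 in dul+Rum. limma called 0 of the 10, with 4, 6 and 8 at an unadjusted p-value under 0.05, all higher. At this level were 3.83, 19.6 and 16.8 percent of all genes. Higher genes alone were 8.86 percent of all genes for Rum and 8.08 percent for dul+Rum, and lower genes 1.63 percent for dul. DESeq2 called 0, 2 and 1 of the microglia genes and edgeR 0 in all 3 comparisons, beside DESeq2's 0.00668, 5.6 and 1.68 percent of the genes with an adjusted p-value. With 1 mouse omitted, limma called up to 3 for Rum (without 9_2) and up to 2 for dul+Rum (without 12_4). At the unadjusted level, the 4 for dul were 1 without mouse 3_3, and the 8 for dul+Rum were 4 without 12_2. Their summed level was 4753 ± 268 normalized counts in controls, 5275 ± 512 in dul, 5425 ± 457 in Rum and 5576 ± 743 in dul+Rum (mean ± SD, n = 6), with *Csf1r* the most abundant at a mean of 1414. Blood genes had medians of 0.30, 0.75 and 0.78. limma, edgeR and DESeq2 called 0 of the 5, and 0, 4 and 5 had an unadjusted p-value under 0.05 in limma, all higher. The shares of all genes at this level are those given for the microglia genes. Without mouse 6_3 the dul median was 0.04, and without 8_4 the Rum median was 0.60 with 1 gene at this level. The dul+Rum median was 0.57 without 12_2, and 0 genes were at this level without 11_3. They summed to 349 ± 65.7 normalized counts in controls, 462 ± 265 in dul, 598 ± 204 in Rum and 633 ± 351 in dul+Rum, and *Hbb-bs*, a hemoglobin chain, was the most abundant at 313. Endothelial and pericyte genes had medians of 0.08, 0.09 and 0.18, and 0 of 10 were called by limma and edgeR. At an unadjusted p-value under 0.05 limma had 0, 0 and 4, again beside the shares given for the microglia genes. The dul median was 0.05 without mouse 6_3, and the 4 for dul+Rum were 2 without 1_1 and 7 without 12_4. DESeq2 called 1 in dul+Rum against control, *Rgs5*, a pericyte gene that also had the highest mean, 1517 (log2 difference 0.31, adjusted p = 0.041). Their part in the differences of the astrocyte genes was not tested.

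For 7 further lists, limma and edgeR called 0 genes in any comparison, and DESeq2 called 2 of 8 inhibitory neuron genes for Rum against control, beside 5.6 percent of the genes with an adjusted p-value. Oligodendrocyte genes had medians of 0.12, 0.14 and 0.12 against control with 0 of 10 called. All 3 turned below 0 without 1 mouse, to -0.06 without 6_3, -0.03 without 9_2 and -0.09 without 12_2, and *Mbp*, a protein of myelin, ranged from 4963 normalized counts in 12_4 to 19070 in 12_2, both in dul+Rum. Oligodendrocyte precursor genes differed by 0.06, -0.03 and 0.03, with *Pdgfra* the most abundant at 926. Excitatory neuron genes differed by 0.01, -0.03 and -0.10 and inhibitory neuron genes by -0.02, 0.08 and 0.03, with *Gad1*, which makes GABA, at 3895. Of these medians near 0, that of precursor genes was 0.02 for Rum without mouse 3_3 and -0.07 for dul+Rum without 12_2, that of excitatory neuron genes -0.0079 for dul without 5_1, and that of inhibitory neuron genes -0.0026 for dul+Rum without 11_4. Striatum genes had medians of -0.09, 0.23 and 0.03, choroid plexus genes 0.12, 0.49 and 0.44, and meningeal fibroblast genes 0.02, 0.16 and -0.08, the last with *Col1a2*, a collagen chain, at 340. Without mouse 8_4 the Rum median was -0.08 for striatum genes, the opposite direction, and 0.16 for choroid plexus genes. Without 11_4 the dul+Rum median was -0.18 for striatum genes, also the opposite direction, and 0.12 for choroid plexus genes. The dul median of choroid plexus genes was 0.03 without 2_1, and those of meningeal fibroblast genes were -0.09 for dul without 5_1 and 0.13 for dul+Rum without 2_2. At an unadjusted p-value under 0.05, limma had at most 3 genes of any of these lists in a comparison, the 3 being inhibitory neuron genes in Rum against control, where 19.6 percent of all genes were at this level.

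The balance of the glutamate transporters showed the same mouse again. The ratio of *Slc1a2* to *Slc1a3* in normalized counts was 6.68, 7.37 and 7.76 in controls, 6.51, 7.18 and 7.90 in dul, 4.46, 6.59 and 7.06 in Rum and 6.72, 7.04 and 7.73 in dul+Rum (lowest, median and highest). The groups overlapped, and the 3 lowest ratios of all 24 mice were 4.46 in 9_3, 5.87 in 8_4 and 6.34 in 7_2. These are the 3 mice with the lowest balance of long against short transcripts. The ratio was given no test, and the part of transcript length in it was not tested.

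**Figure D5:**
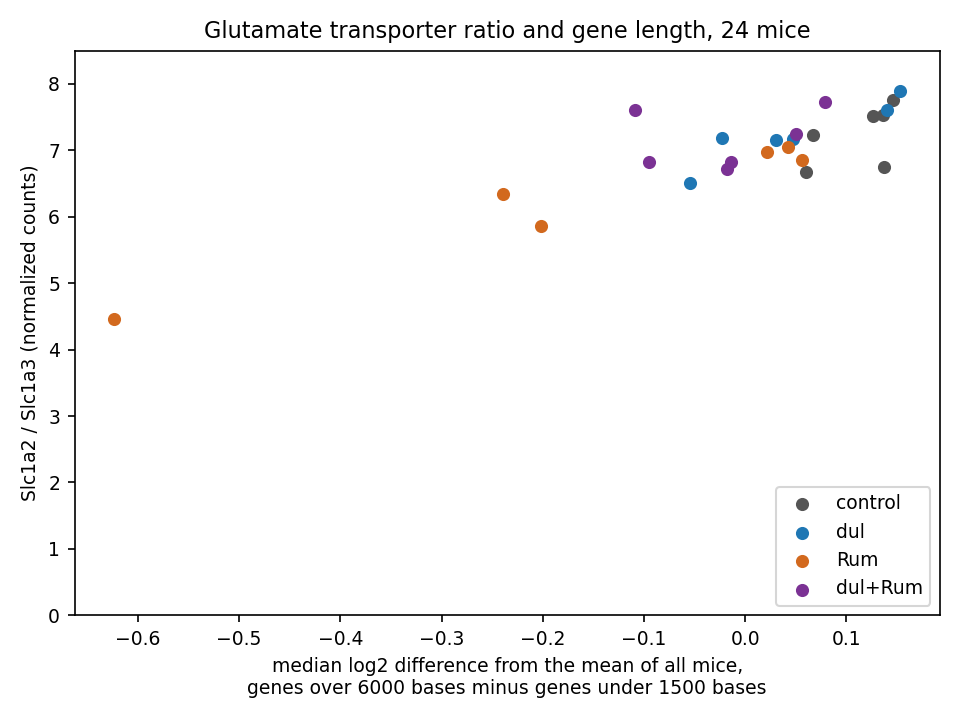
Ratio of *Slc1a2* to *Slc1a3* (y axis, from 0) against the median log2 level of genes over 6000 bases minus that of genes under 1500 bases (x axis) in 24 mice, coloured by group. Mouse 9_3 is the point at -0.62 and 4.46, and the other 23 mice lie at ratios of 5.87 or above.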

How the data were processed

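Poly(A) RNA was sequenced from the mPFC of 24 mice. Per the labels and methods, the authors mapped reads with TopHat2 2.1.0 and Bowtie2 2.2.6 and normalized gene counts with DESeq2 1.18.1. The table they deposited holds these values (unit: signal), so size factors had already been applied. The labels name the build mm9 and the methods GRCm38.p5, and positions in the file match GRCm38. The counting program, strand setting and low-count filter are not given in the sources used here. Values were whole multiples of 1 step per mouse (99.97 percent or more, within 0.0051), which returned reads.

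Genes with a mean of at least 10 were transformed as log2(value + 1) and fitted in R 4.3.3 by limma 3.58.1. The pseudocount slightly understates changes of low genes. All 4 groups entered the fit, with a trended prior. Tests were two-sided, with Benjamini-Hochberg adjustment over 14974 genes per comparison and a threshold of 0.05. edgeR 4.0.16 and DESeq2 1.42.0 were run on recovered reads, and the fits were tested on simulated data. The other alternatives changed the pseudocount (0.1) or the minimum mean (none, 50), or used only the groups compared, quantile normalization, 75th percentile rescaling, a length trend removed and each mouse left out. Lengths came from GENCODE vM21. Python 3.11.15 with scipy 1.17.1 gave correlations. Named were all members, genes most like them, the most abundant gene of each list, called genes of other cell types (up to 3) and, per astrocyte list and comparison, the called genes (up to 5) or else the gene with the smallest p-value. Members and lists were chosen with earlier results of these data known. One result is not reported here.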

Additional observations from a re-analysis of the deposited data

Results flagged for a closer look

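Of 44 sets of 6 values examined for a mouse far from the others of its group, 1 was picked out, while chance picks out about 1 in 20. *Gfap* in control mouse 2_3 had 1287 normalized counts, and its distance to the next control was 0.67 of the range of the group. The same mouse was the highest control in the mean of the 10 astrocyte genes, 0.12, and in oligodendrocyte genes, 0.60 above the mean of all mice on the log2 scale.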

How the results depend on the processing

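The median log2 fold change of the 10 genes kept its sign under all 9 alternatives in each comparison with control and in dul+Rum against dul. It moved by less than 0.145, the SD between mice within groups of the mean of the 10 genes. Of these medians, only that of dul+Rum against control is larger than this SD, so the bound is a loose one. The median changed sign for dul+Rum against Rum (-0.0059 with the length trend removed) and for the interaction, both near 0. The count of called members changed only for Rum against control, to 1 with DESeq2. Counts of all called genes depended more on the setting. For Rum against control they were 0 with only the groups compared, 1 with the length trend removed and 497 with DESeq2. For dul+Rum against control they were 30 with a minimum mean of 50, 196 with only the groups compared, 23 with 75th percentile rescaling, 77 with the length trend removed and 217 with DESeq2. For dul+Rum against Rum they were 0 with only the groups compared and 610 with DESeq2, and DESeq2 called 1 gene each for dul against control and for dul+Rum against dul. Leaving out each mouse in turn gave 0 to 616 called genes for Rum against control, 5 to 154 for dul+Rum against control, 0 to 2 for dul+Rum against dul and 47 to 577 for dul+Rum against Rum. Called members ranged from 0 to 1 for Rum against control and were 0 in all other comparisons. With quantile normalization *Slc1a2* differed from control by -0.15 in dul, -0.27 in Rum and -0.15 in dul+Rum. The pair correlations without mouse 9_3 were added after seeing the data, with a median r of 0.65 over all pairs and 0.66 for *Slc1a2*. The cause of these changes was not tested. No paired analysis was possible because the groups share no replicate numbers. The depth, 12811413 reads or more per mouse, left the least abundant of the 10 genes, *Sox9*, with a mean of 496 normalized counts.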

Other observations

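The *Gfap* level was the least stable of the 10 genes within groups. Its coefficient of variation was 19.1 percent in controls, 24.2 percent in dul, 25.8 percent in Rum and 38.1 percent in dul+Rum, against 5.40, 9.55, 6.86 and 15.98 percent for *Slc1a3*. The highest *Gfap* values were 1673 normalized counts in mouse 11_4 and 1532 in 8_4, the 2 mice with the highest level of striatum genes. *Sox9* was highest in 8_4 as well, with 646 normalized counts. *Thbs4*, a thrombospondin, was the least abundant of the 56 other astrocyte genes, with a mean of 32.0 normalized counts, and had the lowest log2 fold change of that list in dul+Rum against Rum, -0.88. limma, edgeR and DESeq2 did not call it (adjusted p = 0.55, 0.63 and 0.69), and it was named after its values were seen.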
